A study of Mus musculus with 5 samples.

Results

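The genes described here are 9 that code for matricellular CCN proteins or that take part in the sensing of mechanical load: Cyr61, Ctgf, Nov, Wisp1 and Wisp2 of the CCN family, the ankyrin repeat gene Ankrd1, and the ion channel genes Piezo1, Piezo2 and Trpv4. They were set by symbol, a rule that used no measured value although earlier results of these data were known, and all 9 were found among the 27998 genes counted in each library. The tissue was the temporomandibular joint (TMJ) disc, the fibrocartilage pad between the mandibular condyle and the skull, taken from C57BL/6 mice that the labels give as wild type. Single-cell RNA-seq was made of 1 library per condition: discs of 3 d pups with both sexes in one suspension, of males at 3 w, 16 w and 78 w, all untreated, and of mice aged 7 weeks whose disc had been pricked with a needle at its anterior band at 5 weeks, 2 weeks before collection. The study's methods describe that injury in mice carrying Myh11-CreER, a tamoxifen-inducible Cre of smooth muscle and mural cells, with the reporter allele Tm fl/-, so the labels and the methods differ on the genotype of the injured library. Those methods also describe tamoxifen injections at 5 weeks in that model. Whether the sequenced mice received them is not given in the sources used here. No uninjured library of the injured library's age was analysed here, how many animals went into a suspension is not given in the sources used here, and every difference between ages or with injury is a difference between single libraries.

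CCN proteins are secreted into the matrix around cells, where they bind integrins, heparan sulphates and growth factors and change how cells attach and respond to signals. Cyr61 (CCN1) and Ctgf (CCN2) are induced by stretch and by a stiff matrix, largely through the coactivators YAP and TAZ, which enter the nucleus when cells spread or are under tension and act there with TEAD factors. Nov (CCN3), Wisp1 (CCN4, a WNT-induced gene) and Wisp2 (CCN5, which lacks the C-terminal module of its relatives) belong to the same family. Ankrd1 codes for a nuclear and sarcomeric ankyrin repeat protein and is, with Cyr61 and Ctgf, among the genes most often read as YAP/TAZ targets. Piezo1 and Piezo2 are cation channels opened by membrane tension, Piezo2 being best known from touch and proprioceptive neurons, and Trpv4 is a cation channel known from chondrocytes, where it responds to osmotic and compressive load.

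Promoters were examined without regard to the levels of the genes, and 2 are shown, those of the YAP/TAZ targets Cyr61 and Ankrd1. RefSeq promoters, from 250 bases before to 50 after the start of the gene on GRCm38.p6, were examined for 4 of the 9 genes, Cyr61, Ankrd1, Piezo1 and Trpv4. Ctgf, Nov, Wisp1 and Wisp2 had no entry in the table used, and Piezo2 was left out. The 2 shown are on the minus strand, at chr3:145649936-145650235 for Cyr61 and chr19:36119795-36120094 for Ankrd1, printed 5′ to 3′ along the gene, with each match to the TEAD core motif CATTCC, read on either strand, in capitals.
Cyr61: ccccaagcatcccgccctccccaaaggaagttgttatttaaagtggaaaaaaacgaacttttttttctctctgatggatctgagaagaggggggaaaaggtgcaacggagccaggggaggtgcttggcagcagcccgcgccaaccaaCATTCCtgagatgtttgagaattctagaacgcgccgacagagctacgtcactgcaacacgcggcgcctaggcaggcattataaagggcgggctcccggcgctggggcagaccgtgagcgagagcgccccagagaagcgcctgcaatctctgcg
Ankrd1: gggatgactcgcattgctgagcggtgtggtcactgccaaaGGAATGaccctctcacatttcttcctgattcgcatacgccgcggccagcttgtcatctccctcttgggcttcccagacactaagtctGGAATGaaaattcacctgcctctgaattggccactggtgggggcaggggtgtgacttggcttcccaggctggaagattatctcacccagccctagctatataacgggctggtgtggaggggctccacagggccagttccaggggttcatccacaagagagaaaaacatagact
The Cyr61 promoter held 1 match, CATTCC from 103 bases before the start. The Ankrd1 promoter held 2, both read as GGAATG on the printed strand, from 210 and from 123 bases before the start. These positions refer to the RefSeq start. In the GENCODE annotation Ankrd1 spans chr19:36111961-36120099, which holds the whole printed window, so both matches lie after the start given there. Neither the Trpv4 nor the Piezo1 window held the motif, and 14.66% of all 32851 promoters did, so a match is common and describes the letters only. A TATA box, TATAAA or TATATA, lay from 25 bases before the start in Cyr61, from 27 in Ankrd1 and from 24 in Piezo1, against 17.08% of all promoters with one. None of the 4 windows held the AP-1 motif TGANTCA, the CRE motif TGACGTCA or a CArG box, found in 7.808%, 1.79% and 1.629% of all promoters.

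After removal of low-quality cells the libraries held 14959, 9372, 8775, 10115 and 8467 cells (3 d, 3 w, 16 w, 78 w and injured), with median UMI counts per cell of 7721, 12496, 9234, 9466 and 3299. The injured library was the shallowest, and pairs of libraries shared 19 to 39 cell barcodes. Clustering without the listed genes gave 3 stromal clusters, together 80.448% of cells. They were named from 6 fibroblast markers, so the detection of all 6 in every library is no separate evidence for that name. Cluster 1 was led by Lcn2, Cytl1, Ibsp, Chad and Col2a1, cluster 2 by Coch, Spp1, Kera and Tnmd, and cluster 3 by Pi16, Clec3b, Mfap4 and C3, and the 3 d library held more of cluster 3 (4480 of 10791 stromal cells) than the later ones (689 of 7917 at 3 w). Other classes were EC-like (endothelial, 3447 cells), MC-like (mural, 1242), MPh-like (macrophage, 1471) and synovial lining-like (1189). An erythroid-like class (545 cells, 404 of them at 3 d) entered the fit of the class contrasts and is not described further. Levels are given as CPM, the UMIs of a gene per 1000000 UMIs of that class in that library, and 95% intervals are exact Poisson or, for ratios, exact conditional intervals that cover counting error only. CPM of different genes should not be set against each other, as a 3′ tag count does not correct for how well a transcript is captured.

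In the stromal clusters most of these genes differed at least 2-fold between 3 d and 3 w, and fewer did so later. Between 3 d and 3 w, 4 of 9 were at least 2-fold higher (Ctgf, Wisp2, Ankrd1 and Trpv4) and 3 at least 2-fold lower (Nov, Wisp1 and Piezo2), beside 16.4% higher and 18.9% lower among the 12987 genes with at least 100 UMIs in the library with more. Between 3 w and 16 w, 4 of 9 were higher (Cyr61, Ctgf, Ankrd1 and Piezo2) and 0 lower, beside 5.10% and 5.79% of 12246 genes. Between 16 w and 78 w only Wisp1 was higher and only Piezo2 lower, beside 2.01% and 1.31% of 11917 genes. Across the whole span from 3 d to 78 w, 6 were higher and 3 lower, so all 9 lay past 2-fold, beside 14.3% and 21.0% of 12919 genes. Piezo1 was the nearest to that limit (2.12) and lay under it with the stromal clusters given equal weight (1.90) and without integration (1.94). With that equal weight Trpv4 and Piezo2 were not past 2-fold between 3 d and 3 w, nor was Piezo2 between 3 w and 16 w. With each cell given equal weight Cyr61 was past 2-fold upward between 3 d and 3 w. Their median log2 ratio was 2.92, against -0.17 for all those genes. With 1 library per age there is no test of any of these differences.

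**Figure D1:**
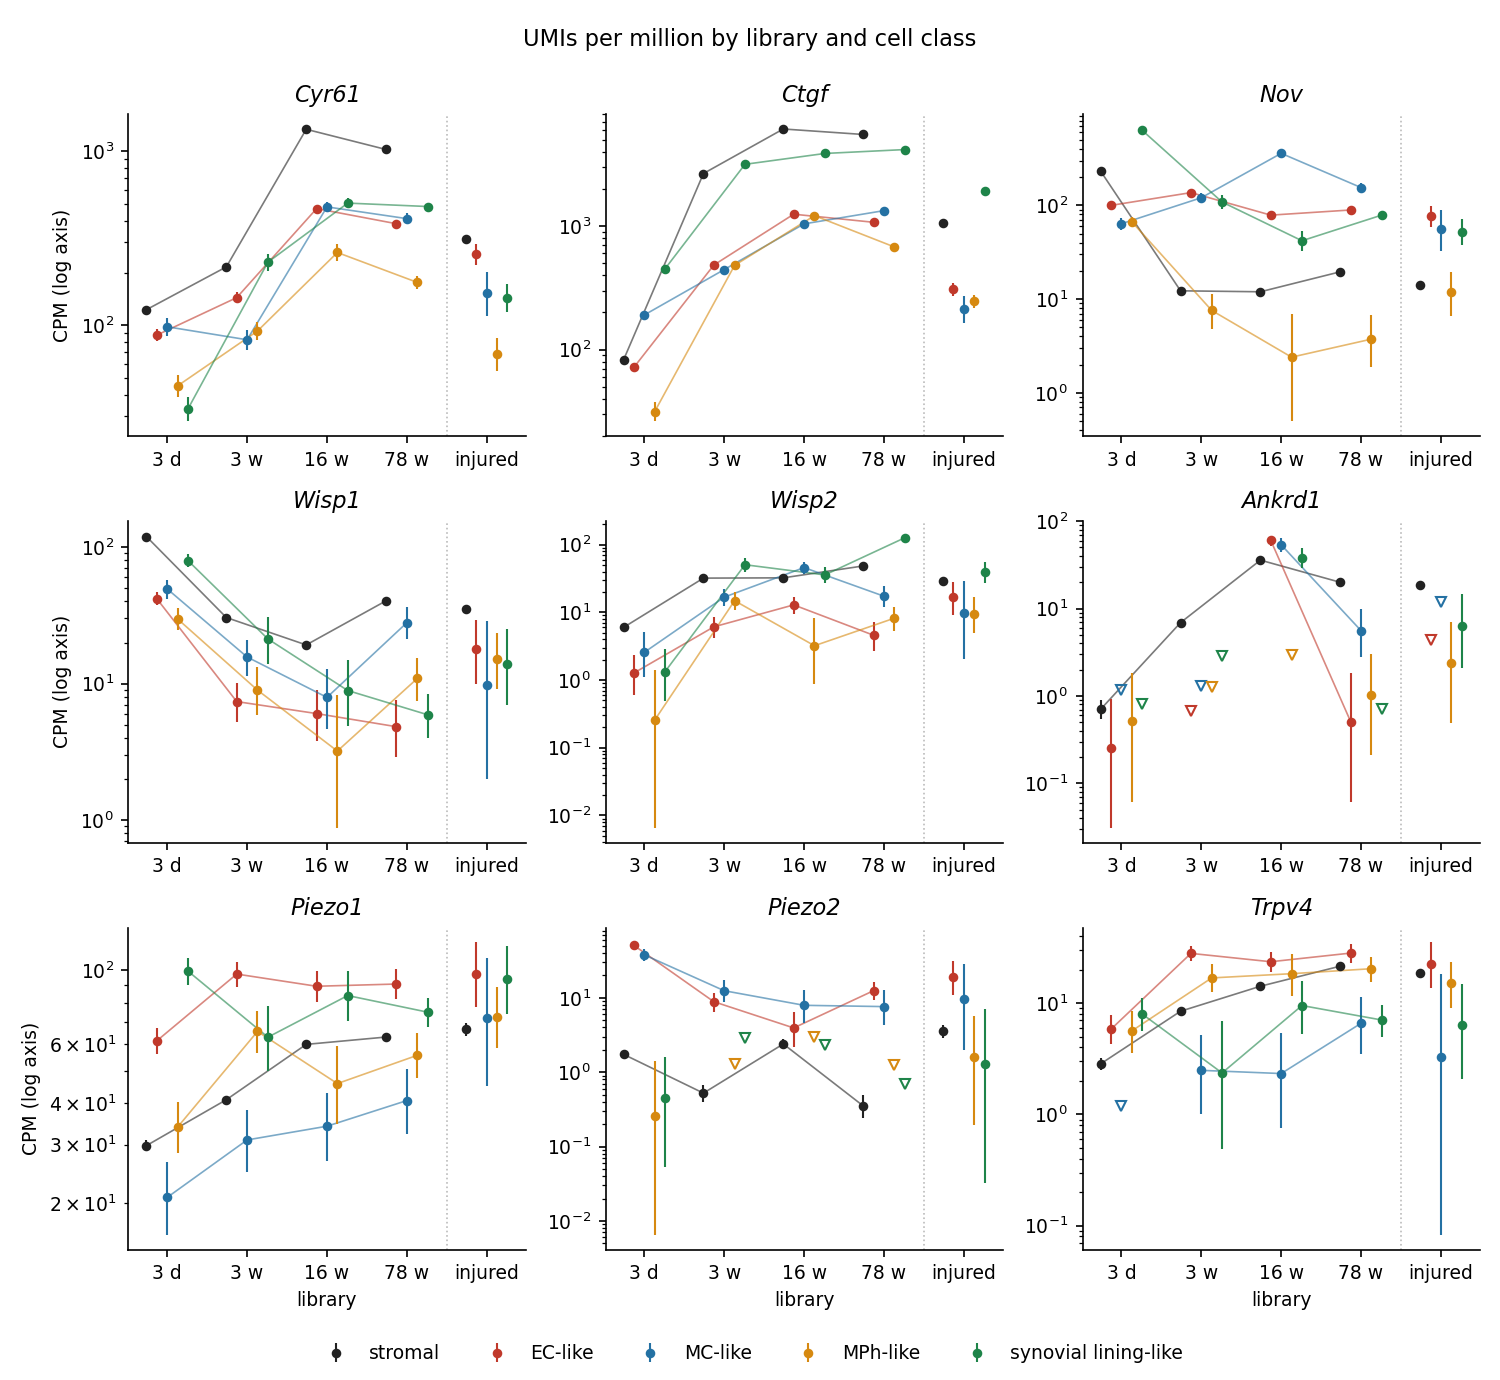
Level (CPM, log axis) of each gene in each library, by cell class. Points carry exact 95% Poisson intervals, and lines join the untreated ages. Open triangles mark 0 UMIs and stand at the upper end of that interval, above the floor of 3 counts used in the text. In the stromal clusters Ctgf and Cyr61 were highest at 16 w, Nov and Wisp1 at 3 d, and Piezo2 was highest in EC-like cells at 3 d.

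Cyr61 and Ctgf, the matrix-bound YAP/TAZ targets, were low in the newborn disc and high in the adult. The stromal level of Ctgf was 82.7 CPM at 3 d, 2660.4 at 3 w, 6101 at 16 w, 5508 at 78 w and 1064 in the injured library. It was 32.2-fold higher at 3 w than at 3 d (95% interval 31.5 to 32.9), 2.29-fold higher at 16 w than at 3 w, and 1.11-fold lower at 78 w than at 16 w. The largest step of Ctgf thus lay between 3 d and 3 w. With the 3 stromal clusters given equal weight, the 3 w to 3 d ratio was 20.2, still far above 2. Stromal Cyr61 stood at 123 CPM at 3 d, 217 at 3 w, 1339.8 at 16 w, 1025 at 78 w and 312 in the injured library. Its larger step came later, 1.76-fold from 3 d to 3 w (1.72 to 1.80) and 6.18-fold from 3 w to 16 w (6.10 to 6.27). With each cell given equal weight the first of these was 2.18, past 2-fold.

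Ctgf stood highest in cluster 1 in every library. Its level there was 132 CPM at 3 d, 3121 at 3 w, 7280.4 at 16 w, 6766 at 78 w and 1368 in the injured library. In cluster 2 it was 93.5 CPM at 3 d, 1901 at 3 w, 3192 at 16 w, 2387 at 78 w and 623 in the injured library, and in cluster 3 56.4 CPM at 3 d, 659 at 3 w, 1222 at 16 w, 1005 at 78 w and 217 in the injured library. All 3 clusters had their highest level at 16 w and their lowest at 3 d. Cyr61 did not keep one order: at 3 d cluster 3 was highest (146 CPM, against 77.00 in cluster 1), and in the later libraries cluster 1 was highest, with 1479.7 CPM at 16 w against 1032 and 671 in clusters 2 and 3. Clustered more finely, a stromal cluster led by Aoc2, Cilp2 and Inhba held 330.1 CPM of Ctgf at 3 d, 3278 at 3 w, 9612 at 16 w, 9096 at 78 w and 1685 in the injured library. Its Ctgf was the highest of the finer stromal clusters in every library but 3 w, where the one led by Ibsp, Lcn2 and Col2a1 held 3289 CPM.

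**Figure D2:**
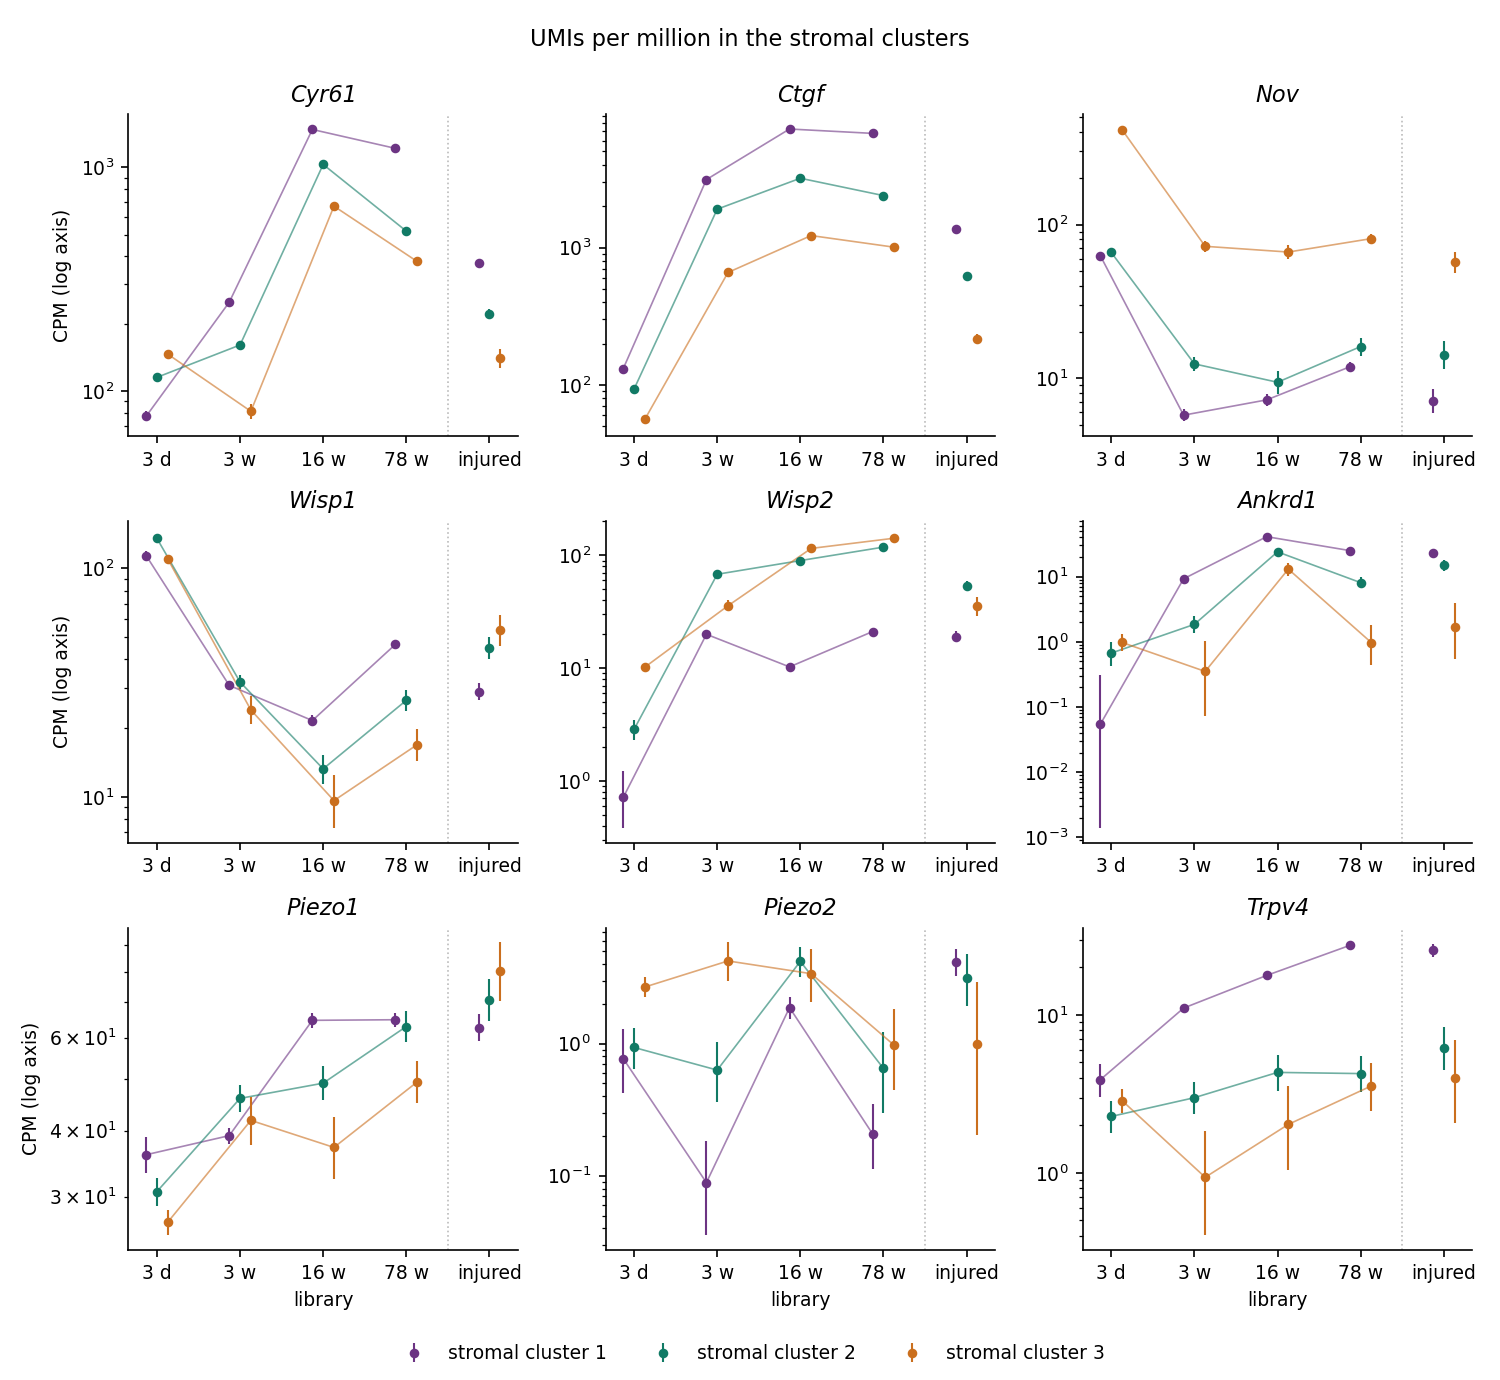
The same levels (CPM, log axis, exact 95% Poisson intervals) in stromal clusters 1, 2 and 3 by library, lines joining the untreated ages. Ctgf lay highest in cluster 1 and lowest in cluster 3 in every library, Nov lay highest in cluster 3, and Trpv4 in cluster 1.

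Other groups of genes differed between the same libraries. The 14 genes of the digestion and stress response list, immediate early genes such as Fos and heat shock genes that rise when tissue is dissociated, summed to 6088 CPM at 3 d, 11245 at 3 w, 18785 at 16 w, 12428 at 78 w and 9843 in the injured library in the stromal clusters, with all 14 detected. Within cluster 1, where Ctgf was highest, that sum was 15152 CPM at 16 w, below the 30189 of cluster 2 and the 27905 of cluster 3, where Ctgf was lower. Over the libraries the stress sum of cluster 1 was 4589.7 CPM at 3 d, 7318 at 3 w, 15152 at 16 w, 10163 at 78 w and 9322 in the injured library. In each of the 3 clusters both it and Ctgf were lowest at 3 d and highest at 16 w. The 4 markers of chondrocyte-like disc fibroblasts (Chad, Comp, Cilp and Cilp2) summed to 116 CPM at 3 d and 6663 to 13117 in the other libraries, the 7 synovial lining markers, Prg4 among them, to 242 and 2944 to 12046, and the 4 cycling markers to 217 and 2.39 to 11.5. All were detected in every library. The part of these in the differences of Ctgf, Cyr61 and Ankrd1 between ages was not tested. Endothelial markers (7 of 7 detected) summed to no more than 28.3 CPM and macrophage markers (7 of 7) to no more than 59.1 in the stromal clusters of any library.

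Across cell classes, the contrasts of each class with the pooled stromal clusters rest on the 5 libraries as units (edgeR quasi-likelihood test on UMI sums per library and class, library as a block, p adjusted over all 12282 genes tested). The block takes up what all classes of a library share. The spread left holds class differences that vary with age or injury, as well as technical error. For each gene it is 1 estimate over all classes of the fit, with 19 residual degrees of freedom, not the spread of 1 contrast. All 4 contrasts use the same stromal sums, so they are not separate observations. The SE given with a log2 fold is its absolute value divided by the square root of the F statistic of that test. In EC-like sums, 3 of the 9 genes were higher and 5 lower, beside 18.8% higher and 22.7% lower of all genes. In MC-like sums, 2 were higher and 5 lower, beside 16.4% and 17.2%. In MPh-like sums, 0 were higher by edgeR, DESeq2 or at an unadjusted p under 0.05, and 6 were lower, beside 24.6% and 29.0%. In synovial lining-like sums, 2 were higher and 4 lower, beside 12.4% and 15.3%. The median log2 folds of the 9 genes were -1.03, -1.13, -1.95 and -0.69 against -0.05 to -0.10 for all genes (order as above, the range being over the 4 classes).

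The split of all calls depended on the scaling, with 2308 higher and 2788 lower EC-like genes under TMM, 3051 and 2058 with library totals, and 3075 and 2326 by DESeq2. In MC-like sums the 3 splits were 2017 and 2118, 2378 and 1481, and 2604 and 1617. Those of the synovial lining-like sums were 1527 and 1879, 2184 and 1245, and 2093 and 1513, and DESeq2 gave 3823 and 2810 in MPh-like sums, against 3024 and 3561. Using library totals moved the median log2 fold of all genes from -0.05 to 0.14 (EC-like), from -0.08 to 0.06 (MC-like) and from -0.07 to 0.10 (synovial lining-like). Among the calls on these 9 genes, totals ended those of Piezo1 in MC-like and Piezo2 in synovial lining-like sums and turned no direction. Clustering without integration gave no synovial lining-like cells at 3 d (493 in the main clustering) and 75 EC-like cells there in place of 1066, so that fit rests on 4 libraries for the former. Without the library block only 6 calls on these genes remained: Wisp1 and Piezo2 in EC-like, Piezo2 and Trpv4 in MC-like, and Cyr61 and Wisp1 in MPh-like sums.

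**Figure D3:**
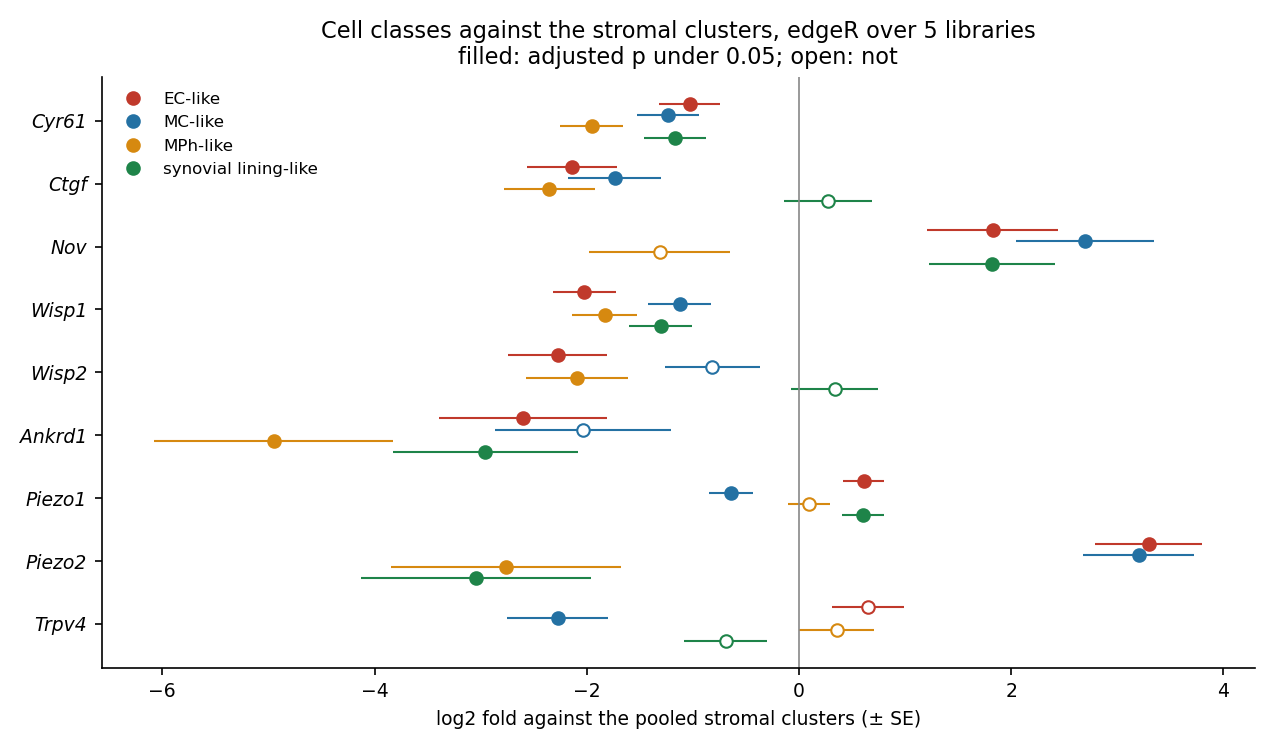
Log2 fold of each gene in 4 cell classes against the pooled stromal clusters (x axis), with bars of ± 1 SE derived from the edgeR F statistic over the 5 libraries. Filled points have an adjusted p under 0.05. Points left of 0 are lower than in the stroma, as for Wisp1 in all 4 classes, and Piezo2 lies right of 0 in EC-like and MC-like cells only.

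Cyr61 was lower in all 4 classes than in the stroma. In EC-like cells it stood at 87.9 CPM at 3 d, 144 at 3 w, 469 at 16 w, 384 at 78 w and 256 in the injured library, below the stroma in 5 of 5 libraries (log2 fold -1.03 ± 0.29 SE, edgeR adjusted p = 0.00456). MC-like cells were also lower in 5 of 5 (log2 fold -1.23 ± 0.29 SE, edgeR adjusted p = 0.00148), with levels between 82.6 CPM at 3 w and 479.6 at 16 w. The lowest contrast was in MPh-like cells (log2 fold -1.95 ± 0.30 SE, edgeR adjusted p = 3.21e-06), at 44.9 CPM at 3 d, 92.8 at 3 w, 262 at 16 w, 177 at 78 w and 68.5 in the injured library. Synovial lining-like cells, the fibroblasts that line the joint cavity, were lower in 4 of 5 libraries (log2 fold -1.17 ± 0.29 SE, edgeR adjusted p = 0.00351), and clustering without integration ended that call (-0.85, adjusted p = 0.0652). With all cells kept, every class had its highest Cyr61 at 16 w, as the stroma did. In EC-like cells 72.9% of the Cyr61 UMIs at 16 w lay in the cells with the highest doublet scores (Scrublet). Without those cells EC-like Cyr61 was highest at 78 w, with 281.6 CPM against 187.6 at 16 w and 212 in the injured library. The other classes and the stroma remained highest at 16 w.

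Ctgf was lower in EC-like, MC-like and MPh-like cells and not called in the synovial lining. EC-like Ctgf was 71.97 CPM at 3 d, 483 at 3 w, 1247 at 16 w, 1073 at 78 w and 307 in the injured library (log2 fold -2.14 ± 0.43 SE, edgeR adjusted p = 0.000169). In MC-like cells it was 191 CPM at 3 d, 444 at 3 w, 1041 at 16 w, 1332 at 78 w and 212 in the injured library (log2 fold -1.74 ± 0.44 SE, edgeR adjusted p = 0.00265), so that at 3 d MC-like cells were above the stroma and in the other 4 libraries below it, and without 3 d the log2 fold was -2.46 (adjusted p = 4.71e-07). MPh-like cells gave 31.5 CPM at 3 d, 481 at 3 w, 1213 at 16 w, 677 at 78 w and 245 in the injured library (log2 fold -2.35 ± 0.43 SE, edgeR adjusted p = 4.13e-05). The synovial lining-like class reached 452 CPM at 3 d, 3158 at 3 w, 3867 at 16 w, 4158 at 78 w and 1929 in the injured library, above the stroma at 3 d, at 3 w and after injury and below it at 16 w and 78 w (log2 fold 0.28 ± 0.41 SE, edgeR adjusted p = 0.672). The Ctgf contrast turned negative without the 3 d library (-0.06, adjusted p = 0.904).

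With all cells kept, EC-like and MPh-like Ctgf from 3 w on stood at 12.3 to 28.9% of its stromal level. The markers of stromal cells stood at 12.4 to 25.3% of theirs. As a share of its stromal level, EC-like Ctgf was 87.1%, 18.2%, 20.4%, 19.5% and 28.9% (3 d, 3 w, 16 w, 78 w and injured), and the summed level of the 6 stromal markers, all detected, was 25.5%, 18.4%, 23.99%, 18.2% and 20.1%. MPh-like Ctgf was 38.2%, 18.1%, 19.9%, 12.3% and 23.1%, beside stromal markers at 21.3%, 19.96%, 13.99%, 12.4% and 25.3%. From 3 w on EC-like Ctgf was above the marker share at 78 w and after injury and below it at 3 w and 16 w. MPh-like Ctgf was above it at 16 w and below it at 3 w, 78 w and after injury. At 3 d both were above it. MC-like Ctgf was 231% of the stromal level at 3 d and 16.7 to 24.2% in the other libraries, beside markers at 30.7% and 21.6 to 30.2%. In synovial lining-like cells Ctgf was 63.4 to 546% of the stromal level, above the markers (28.2 to 45.6%) in every library. Removal of the cells with the highest doublet scores (Scrublet), a choice made after seeing the data, lowered both: EC-like Ctgf to 81.7%, 4.35%, 4.32%, 5.86% and 16.2% and the markers there to 11.3%, 2.83%, 2.45%, 3.32% and 10.7%. Those cells were 9.36 to 19.9% of EC-like cells by library and held 37.1 to 85.8% of EC-like Ctgf UMIs. Without them the log2 folds of Ctgf were -3.56 (adjusted p = 1.41e-05) in EC-like, -2.34 (adjusted p = 0.00192) in MC-like and -3.81 (adjusted p = 4.00e-06) in MPh-like sums. How far stromal RNA or doublets set the remaining Ctgf of these classes was not tested. EC-like Cyr61 without those cells was 67.7%, 63.7%, 14.2%, 27.6% and 68.01% of the stromal level. Both it and EC-like Ctgf were then above the marker share in every library. MPh-like Ctgf was then above that share at 3 d and 16 w and below it at 3 w, 78 w and after injury.

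**Figure D4:**
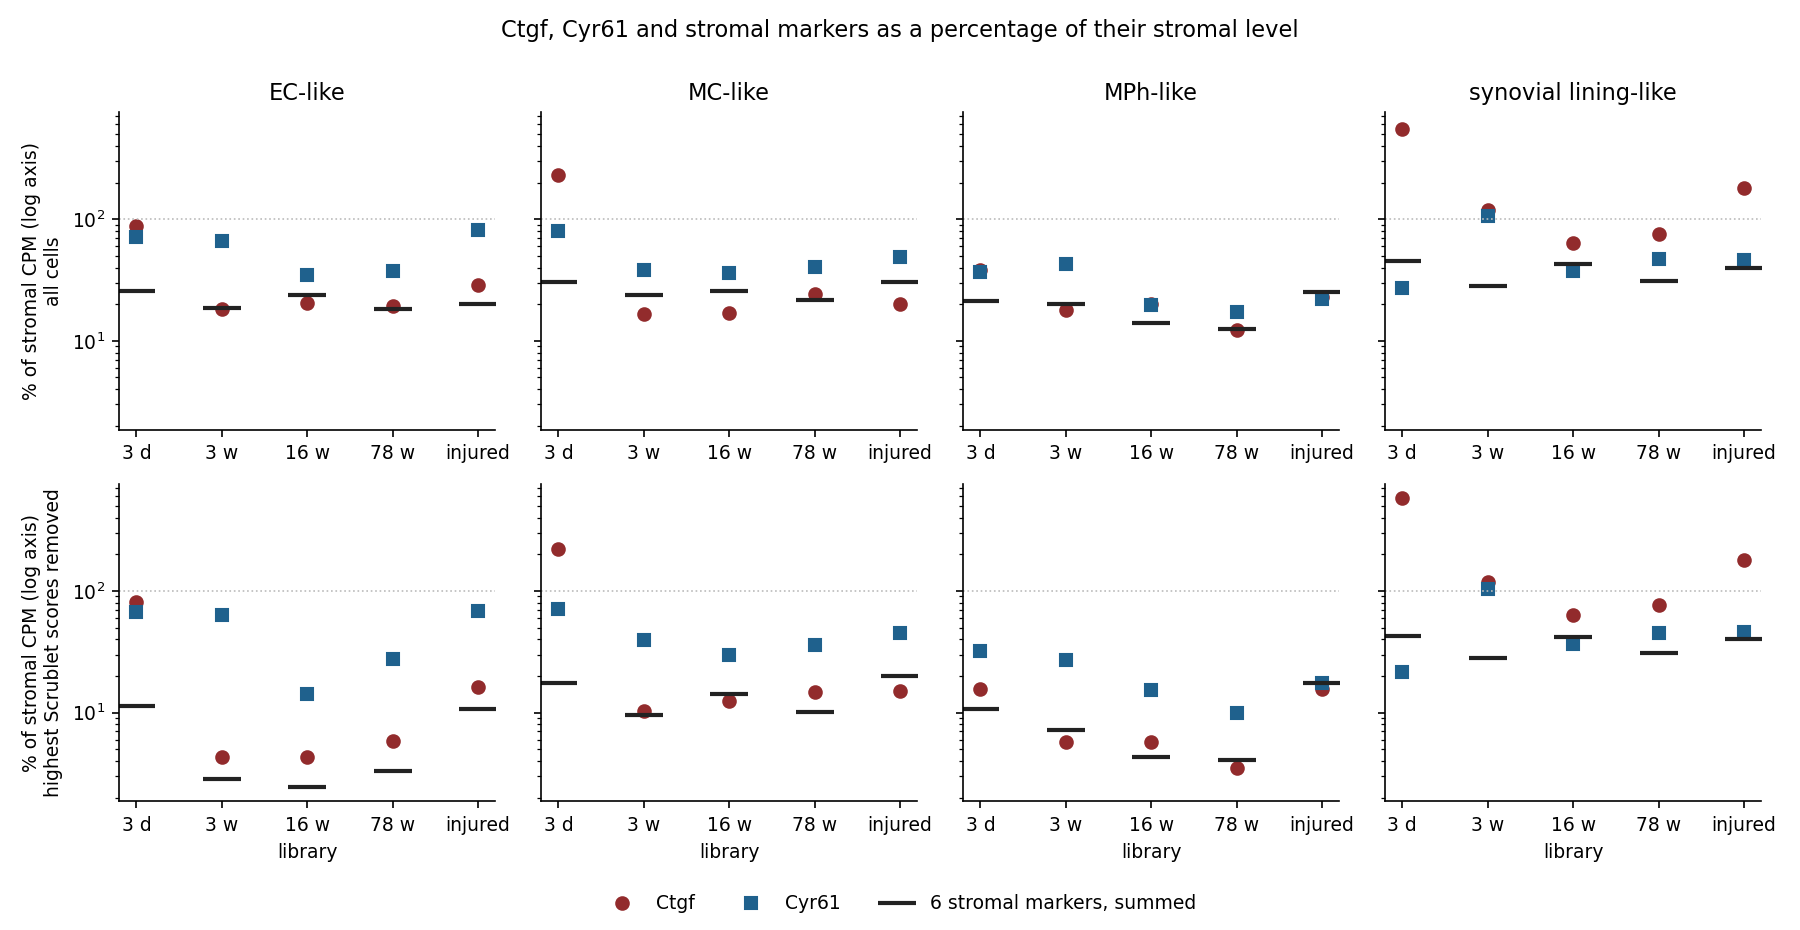
Ctgf (circles), Cyr61 (squares) and the summed 6 stromal markers (bars) in 4 cell classes as a percentage of their stromal CPM in the same library (log axis), for all cells (top) and after removal of the cells with the highest Scrublet scores (bottom); the dotted line is the stromal level. In the top row Ctgf lies on either side of the stromal markers from 3 w on in EC-like and MPh-like cells, and in synovial lining-like cells it lies above them in every library. In the bottom row it also lies above them in every library in EC-like cells.

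Nov is a CCN protein expressed in developing mesenchyme and vessel walls. By class it was highest in the synovial lining, then the stroma, at 3 d. EC-like cells held the most at 3 w and in the injured library, and mural cells at 16 w and 78 w. Clustering without integration named no synovial lining-like cells at 3 d. Stromal Nov was 232 CPM at 3 d, 12.3 at 3 w, 11.99 at 16 w, 19.6 at 78 w and 14.2 in the injured library. The 3 w level was 18.9-fold below that at 3 d (95% interval 17.9 to 19.9), and later libraries stayed within 11.99 to 19.6 CPM. In every library it was highest in cluster 3, at 413 CPM at 3 d, 72.2 at 3 w, 66.2 at 16 w, 81.02 at 78 w and 56.7 in the injured library. Cluster 3 was a larger share of stromal cells at 3 d than later, and equal weight for the 3 clusters gave a 3 w to 3 d ratio of 0.167 instead of 0.0530.

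MC-like cells held more Nov at 3 w, 16 w and 78 w than at 3 d, with 63.8 CPM at 3 d, 121 at 3 w, 359 at 16 w, 155 at 78 w and 55.4 in the injured library. It was 2.98-fold higher at 16 w than at 3 w (2.62 to 3.39) and 2.43-fold higher at 78 w than at 3 d. Over the 5 libraries MC-like Nov was above the stroma in 4 of 5 (log2 fold 2.69 ± 0.65 SE, edgeR adjusted p = 0.00193), and 16 w decided that call, with 1.73 (adjusted p = 0.0512) without it and 3.51 (adjusted p = 5.50e-07) without 3 d. Finer clustering placed more of the Nov in the mural cells led by Rgs5 and Ccl11. Next among their leading genes came Myh11, Tagln and Acta2, genes of contractile smooth muscle, then Abcc9 and Kcnj8, genes of pericytes. Those cells held 65.8 CPM at 3 d, 155 at 3 w, 595 at 16 w, 295 at 78 w and 80.02 in the injured library. The other mural cells were led by Myh11, Tagln and Acta2, with Rgs5 further down their leading genes. They held 52.1 CPM at 3 d, 6.12 at 3 w, 0 at 16 w, 7.28 at 78 w and 16.8 in the injured library, and the 0 at 16 w allows up to 3.71 CPM.

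EC-like Nov was 100.1 CPM at 3 d, 137 at 3 w, 78.7 at 16 w, 89.4 at 78 w and 76.2 in the injured library, above the stroma in 4 of 5 libraries (log2 fold 1.83 ± 0.62 SE, edgeR adjusted p = 0.0182). In synovial lining-like cells it was 632 CPM at 3 d, 109 at 3 w, 41.97 at 16 w, 78.9 at 78 w and 52.2 in the injured library, above the stroma in 5 of 5 (log2 fold 1.82 ± 0.59 SE, edgeR adjusted p = 0.0233). Both calls were weak: without 3 w they became 1.37 (adjusted p = 0.165) and 1.57 (adjusted p = 0.114), without 78 w 1.77 (adjusted p = 0.0834) and 1.80 (adjusted p = 0.102), without the injured library 1.74 (adjusted p = 0.0802) and 1.78 (adjusted p = 0.0817), and without integration 1.58 (adjusted p = 0.0753) and 1.68 (adjusted p = 0.0994), in EC-like and synovial lining-like sums in turn. Without 3 d the EC-like contrast was larger, 2.54 (adjusted p = 1.32e-05). MPh-like Nov, at 66.9 CPM at 3 d, 7.59 at 3 w, 2.41 at 16 w, 3.75 at 78 w and 11.9 in the injured library, was not called (log2 fold -1.31 ± 0.67 SE, edgeR adjusted p = 0.0997) until the high-scoring cells were removed (-2.59, adjusted p = 0.00944).

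Wisp1 was highest in the stroma at 3 d and lower than the stroma in the other 4 classes. Its stromal level was 119 CPM at 3 d, 30.5 at 3 w, 19.2 at 16 w, 40.4 at 78 w and 35.4 in the injured library. The 3 w level was 3.91-fold below that at 3 d (95% interval 3.77 to 4.07), and that at 78 w was 2.11-fold above that at 16 w (1.98 to 2.24), the only one of the 9 genes past 2-fold upward in that interval. At 3 d the clusters were close, from 110.0 to 135 CPM. By 78 w cluster 1 (46.5 CPM) stood above clusters 2 (26.5) and 3 (16.9). The order was turned in the injured library, where cluster 3 was highest (53.7 CPM, 95% interval 45.8 to 62.6) and cluster 1 lowest (28.8, 26.4 to 31.4).

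Against the stroma, Wisp1 was lower in 5 of 5 libraries in each class. The contrast was largest in EC-like cells (log2 fold -2.02 ± 0.30 SE, edgeR adjusted p = 2.55e-06), and larger still without the high-scoring cells (-3.02, adjusted p = 2.92e-07). MPh-like cells followed (log2 fold -1.83 ± 0.31 SE, edgeR adjusted p = 1.35e-05, and -2.58, adjusted p = 5.59e-06 without the high-scoring cells). For MC-like cells the values were log2 fold -1.13 ± 0.30 SE, edgeR adjusted p = 0.00401. Synovial lining-like cells were also lower (log2 fold -1.30 ± 0.30 SE, edgeR adjusted p = 0.00167, and -1.95, adjusted p = 0.000258 without integration), with levels from 79.6 CPM at 3 d to 5.92 at 78 w.

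Wisp2 was scarce at 3 d and present in the stroma from 3 w on. Stromal Wisp2 was 5.98 CPM at 3 d, 31.9 at 3 w, 32.3 at 16 w, 48.3 at 78 w and 29.2 in the injured library. The 3 w level was 5.34-fold that at 3 d (95% interval 4.90 to 5.83) and the 78 w level 8.08-fold. Unlike Ctgf it was lowest in cluster 1, at 0.713 CPM at 3 d, 19.9 at 3 w, 10.2 at 16 w, 21.1 at 78 w and 19.1 in the injured library. Cluster 2 held 2.86 CPM at 3 d, 67.98 at 3 w, 89.9 at 16 w, 118 at 78 w and 53.6 in the injured library, and cluster 3 10.2 CPM at 3 d, 35.7 at 3 w, 115 at 16 w, 142 at 78 w and 35.5 in the injured library. With equal weight for the clusters the 78 w to 3 d ratio was 20.4 and the 3 w to 3 d ratio 8.98.

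The lining of the joint also held Wisp2, with 1.33 CPM at 3 d, 50.4 at 3 w, 35.6 at 16 w, 126 at 78 w and 39.5 in the injured library in synovial lining-like cells, which was not called against the stroma (log2 fold 0.34 ± 0.41 SE, edgeR adjusted p = 0.587) and turned negative without 78 w (-0.18, adjusted p = 0.846). EC-like Wisp2 was lower than in the stroma (log2 fold -2.27 ± 0.46 SE, edgeR adjusted p = 0.000220), as was MPh-like Wisp2 (log2 fold -2.09 ± 0.48 SE, edgeR adjusted p = 0.000601). Both were lower still without the high-scoring cells (-4.89, adjusted p = 7.84e-07, and -4.08, adjusted p = 1.21e-05). MC-like Wisp2 missed the threshold (log2 fold -0.82 ± 0.45 SE, edgeR adjusted p = 0.168) and passed it without 16 w (-1.45, adjusted p = 0.0319). Wisp3, the remaining CCN gene, was near absent, from 0.342 CPM at 78 w to 1.04 at 3 w in the stroma, and had too few UMIs for the class contrasts.

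Ankrd1 was held by few cells, and most of its UMIs lay in a small part of those. In each library most cells with an Ankrd1 UMI held 1 or 2. Stromal Ankrd1 was 0.706 CPM at 3 d, 6.91 at 3 w, 35.8 at 16 w, 19.97 at 78 w and 18.7 in the injured library. It was 9.79-fold higher at 3 w than at 3 d (95% interval 7.67 to 12.7), 5.18-fold higher at 16 w than at 3 w, and 1.79-fold lower at 78 w than at 16 w. Like Ctgf and Cyr61 it was thus highest at 16 w. At 16 w, 2867 Ankrd1 UMIs lay in 360 of 7666 stromal cells, 1 cell held 160, and the 1% of stromal cells with the most held 81.9% of them. MPh-like cells at 16 w, at a median of 10015 UMIs per cell against 9567.5 in the stroma, held 0 in 112 cells, which allows up to 2.41 CPM. The other libraries showed the same concentration, with 71 UMIs in 33 stromal cells at 3 d, 779 in 151 at 3 w, 1813 in 259 at 78 w and 524 in 134 after injury. At 78 w a single cell held 234 of the 1813. Poisson intervals treat UMIs as independent and so understate the error of Ankrd1.

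**Figure D5:**
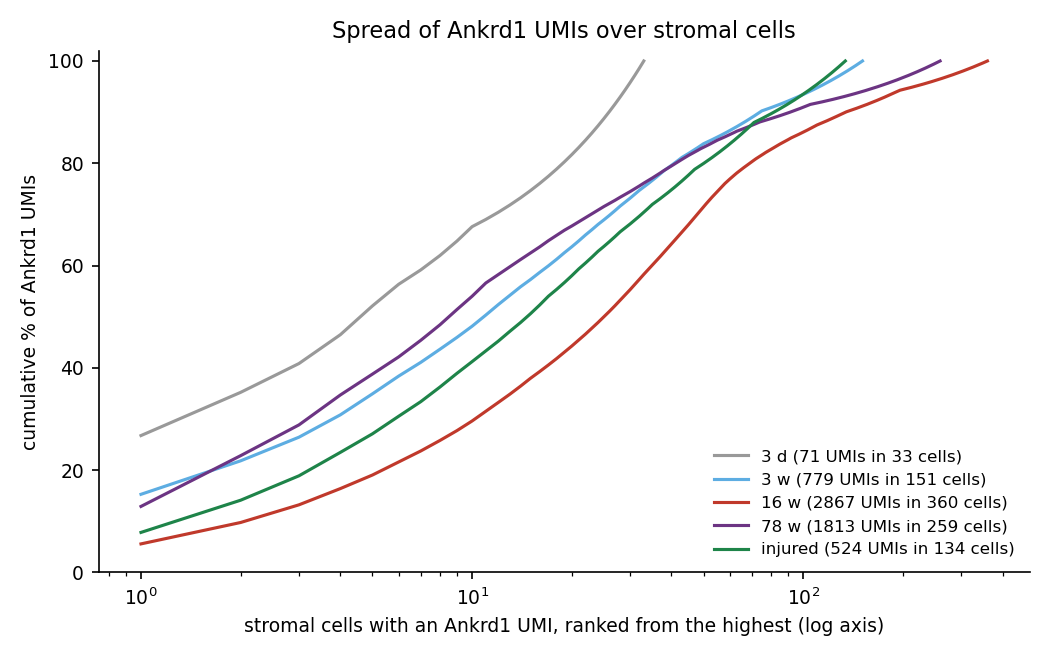
Cumulative percentage of stromal Ankrd1 UMIs (y axis) over stromal cells with at least 1 Ankrd1 UMI, ranked from the cell with the most (log x axis), 1 line per library. In each library the 10 highest cells held between 29.6% and 67.6% of all Ankrd1 UMIs.

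From 3 w on, Ankrd1 had the cluster order of Ctgf. In cluster 1 it was 0.0549 CPM at 3 d, 9.24 at 3 w, 40.9 at 16 w, 25.03 at 78 w and 22.96 in the injured library, and in cluster 2 0.672 CPM at 3 d, 1.85 at 3 w, 23.9 at 16 w, 8.07 at 78 w and 14.96 in the injured library. In cluster 3 it was 0.976 CPM at 3 d, 0.351 at 3 w, 13.01 at 16 w, 0.970 at 78 w and 1.66 in the injured library. The class contrasts were all lower in sign and unstable. EC-like Ankrd1 (log2 fold -2.60 ± 0.79 SE, edgeR adjusted p = 0.00872) was -2.01 (adjusted p = 0.0741) without 3 w, -1.89 (adjusted p = 0.0791) without 78 w, -5.12 (adjusted p = 0.000275) without 16 w and -4.00 (adjusted p = 0.0442) by DESeq2. The 16 w library held 229 of its UMIs in 5 EC-like cells, 180 and 45 of them in 2 cells, and 99.6% in high-scoring cells, without which the contrast was -6.45 (adjusted p = 3.67e-05). MPh-like Ankrd1 was lower in 5 of 5 libraries (log2 fold -4.95 ± 1.13 SE, edgeR adjusted p = 0.000561), though not by DESeq2 (-3.68, adjusted p = 0.0602), and -3.75 (adjusted p = 0.00210) without 16 w.

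The synovial lining-like contrast (log2 fold -2.95 ± 0.87 SE, edgeR adjusted p = 0.0128) lost its call without 3 w (-2.52, adjusted p = 0.0527), without 78 w (-2.01, adjusted p = 0.144), without integration (-1.45, adjusted p = 0.243) and by DESeq2 (-4.11, adjusted p = 0.0582), and was -4.61 (adjusted p = 0.00339) without 16 w, where 1 cell held 51 of its 60 UMIs. MC-like Ankrd1 was not called (log2 fold -2.03 ± 0.83 SE, edgeR adjusted p = 0.0595). It passed without 16 w (-2.81, adjusted p = 0.0198), with the stricter cell filter (-2.08, adjusted p = 0.0495) and with no filter on low counts (-2.11, adjusted p = 0.0435). At 16 w, 2 of 18 MC-like cells with a UMI held 44 and 36 of its 115.

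Piezo1, the channel that opens under membrane tension in many cell types, had the 78 w to 3 d ratio closest to 1 of the 9 genes in the stroma. Stromal Piezo1 was 29.8 CPM at 3 d, 40.9 at 3 w, 59.9 at 16 w, 63.03 at 78 w and 66.6 in the injured library. The 78 w level was 2.12-fold that at 3 d (95% interval 2.02 to 2.21), and the ratio was 1.90 with equal weight for the clusters and 1.94 without integration. All 3 clusters lay between 26.8 and 80.2 CPM in all libraries. EC-like Piezo1, known from vessels that sense flow, was 61.4 CPM at 3 d, 97.4 at 3 w, 89.5 at 16 w, 90.9 at 78 w and 97.7 in the injured library, above the stroma in 5 of 5 libraries (log2 fold 0.61 ± 0.19 SE, edgeR adjusted p = 0.0123, and 0.45, adjusted p = 0.0821 without 3 w).

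Synovial lining-like Piezo1 was 99.3 CPM at 3 d, 62.96 at 3 w, 83.9 at 16 w, 74.8 at 78 w and 94.3 in the injured library, also higher in 5 of 5 (log2 fold 0.60 ± 0.20 SE, edgeR adjusted p = 0.0234). That call was lost without 3 d (0.30, adjusted p = 0.202), 16 w (0.66, adjusted p = 0.0658) or the injured library (0.60, adjusted p = 0.0664), without integration (0.15, adjusted p = 0.608) and with no filter on low counts (0.56, adjusted p = 0.0572). MC-like Piezo1 was 20.8 CPM at 3 d, 30.97 at 3 w, 34.1 at 16 w, 40.6 at 78 w and 71.7 in the injured library, below the stroma in 4 of 5 (log2 fold -0.64 ± 0.21 SE, edgeR adjusted p = 0.0184). Its call was lost with library totals (-0.50, adjusted p = 0.0713), by DESeq2 (-0.50, adjusted p = 0.0548), without 16 w (-0.60, adjusted p = 0.0930) and without 78 w (-0.61, adjusted p = 0.0873). MPh-like Piezo1 was not called (log2 fold 0.09 ± 0.20 SE, edgeR adjusted p = 0.728) and turned negative without 3 w (-0.10, adjusted p = 0.705). The gene overlaps Ctu2 and Gm20388 on the opposite strand at chr8:122481698-122551329 (GRCm38), and whether counting used the strand is not given in the sources used here.

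Among the 5 classes Piezo2 was highest in vessel cells, and there at 3 d. EC-like Piezo2 was 50.6 CPM at 3 d, 8.87 at 3 w, 3.94 at 16 w, 12.5 at 78 w and 19.1 in the injured library, higher than in the stroma in 5 of 5 libraries (log2 fold 3.30 ± 0.51 SE, edgeR adjusted p = 5.08e-06). Without integration the log2 fold was 2.28 (adjusted p = 0.00103), and without 16 w 3.96 (adjusted p = 3.99e-07). MC-like Piezo2 was 37.8 CPM at 3 d, 12.5 at 3 w, 7.93 at 16 w, 7.62 at 78 w and 9.78 in the injured library, likewise higher in 5 of 5 (log2 fold 3.20 ± 0.52 SE, edgeR adjusted p = 2.14e-05). The MC-like call was kept with any 1 library left out. At 3 d, 23.6% of EC-like cells (5232.5 UMIs per cell at the median) and 23.4% of MC-like cells (7301.5 UMIs) had a Piezo2 UMI, against 0.280% of MPh-like cells, which were deeper (10107 UMIs). With each cell thinned to 1000 UMIs the shares of EC-like and MC-like cells were 6.30% and 4.36%.

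The 3 d level was 5.71-fold above that at 3 w in EC-like cells (95% interval 4.22 to 7.87) and 3.04-fold in MC-like cells (2.07 to 4.56). Finer clustering split the mural cells again. Those led by Rgs5 and Ccl11 held 39.5 CPM at 3 d, 16.2 at 3 w, 13.2 at 16 w, 14.97 at 78 w and 16.00 in the injured library, and those led by Myh11 held 27.4 CPM at 3 d and 0 UMIs in the other libraries, which allows up to 4.59 CPM at 3 w, 3.71 at 16 w, 3.12 at 78 w and 25.2 in the injured library.

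In the stroma Piezo2 was sparse, at 1.74 CPM at 3 d, 0.523 at 3 w, 2.40 at 16 w, 0.353 at 78 w and 3.54 in the injured library, from 32 UMIs at 78 w to 192 at 16 w. The 192 UMIs at 16 w lay in 77 cells, against 59 UMIs in 55 cells at 3 w and 175 in 159 at 3 d. Piezo2 levels also differed by cluster. Cluster 3 held 2.68 CPM at 3 d, 4.22 at 3 w, 3.38 at 16 w, 0.970 at 78 w and 0.995 in the injured library, and cluster 1 0.768 CPM at 3 d, 0.0887 at 3 w, 1.87 at 16 w, 0.207 at 78 w and 4.12 in the injured library. With equal weight for the clusters the 3 w to 3 d ratio was 1.13 in place of 0.301, and the 16 w to 3 w ratio 1.91 in place of 4.58. MPh-like cells held 3 Piezo2 UMIs and synovial lining-like cells 3 over all libraries, and both contrasts were lower (log2 fold -2.76 ± 1.08 SE, edgeR adjusted p = 0.0339, and log2 fold -3.04 ± 1.08 SE, edgeR adjusted p = 0.0372). Neither call was stable: MPh-like Piezo2 missed the threshold in 6 of 14 other settings, among them the fits without 16 w (-2.20, adjusted p = 0.0669) and without 3 d (-2.39, adjusted p = 0.132). Synovial lining-like Piezo2 missed it without 3 d, 16 w, 78 w or the injured library (adjusted p from 0.0569 to 0.107).

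Within the stroma, Trpv4, the osmotic and load-sensitive channel of cartilage, was highest in cluster 1, the cluster led by Lcn2, Cytl1, Ibsp, Chad and Col2a1. Stromal Trpv4 was 2.85 CPM at 3 d, 8.47 at 3 w, 14.2 at 16 w, 21.6 at 78 w and 18.7 in the injured library, higher at each later age. The 3 w level was 2.97-fold (95% interval 2.60 to 3.40) and the 78 w level 7.56-fold that at 3 d. Cluster 1 held 3.90 CPM at 3 d, 11.1 at 3 w, 17.8 at 16 w, 27.6 at 78 w and 25.7 in the injured library, while clusters 2 and 3 stayed between 0.937 and 6.22 CPM. Cluster 1 was a larger share of stromal cells after 3 d, and with equal weight for the clusters the ratio to 3 d was 1.66 at 3 w and 3.91 at 78 w. From 3 w on the highest of the finer stromal clusters was one led by Ibsp, Lcn2 and Col2a1, with 17.2 CPM at 3 w, 32.1 at 16 w, 44.5 at 78 w and 41.7 in the injured library. It was not alone, as the one led by Fgfbp1, Cilp2 and Scrg1 held 31.1 CPM at 78 w and 31.97 in the injured library, and at 3 d the one led by Aoc2 was higher (8.57 CPM).

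Outside the stroma, mural cells held less Trpv4 than the stroma. MC-like Trpv4 was 0 CPM at 3 d, 2.49 at 3 w, 2.33 at 16 w, 6.61 at 78 w and 3.26 in the injured library, lower in 5 of 5 libraries (log2 fold -2.27 ± 0.48 SE, edgeR adjusted p = 0.000459, and -3.01, adjusted p = 4.83e-05 without the high-scoring cells). The 0 at 3 d allows up to 0.962 CPM. EC-like Trpv4 was 5.85 CPM at 3 d, 28.1 at 3 w, 23.6 at 16 w, 28.3 at 78 w and 22.6 in the injured library, above the stroma in 5 of 5 but not past the threshold (log2 fold 0.65 ± 0.34 SE, edgeR adjusted p = 0.128), which it passed without 3 d (0.66, adjusted p = 0.0275), with library totals (0.83, adjusted p = 0.0442) and without integration (1.11, adjusted p = 0.00806). MPh-like (log2 fold 0.35 ± 0.35 SE, edgeR adjusted p = 0.414) and synovial lining-like Trpv4 (log2 fold -0.69 ± 0.39 SE, edgeR adjusted p = 0.202) were not called. The latter passed as lower without 3 d (-1.45, adjusted p = 0.00109) and without integration (-1.58, adjusted p = 0.0103).

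After injury the stromal clusters held less Ctgf and Cyr61 than at 16 w and more Ankrd1 and Trpv4 than at 3 w. Ctgf was below and Trpv4 above its level at both ages, while Cyr61 and Ankrd1 lay between their 3 w and 16 w levels. Against 3 w, where Piezo2 had too few UMIs, 2 of 8 genes were at least 2-fold higher (Ankrd1, 2.71-fold, 95% interval 2.42 to 3.03, and Trpv4, 2.20-fold, 1.98 to 2.45), beside 5.34% of 12107 genes. Only Ctgf was lower, by 2.50-fold (2.47 to 2.53), beside 16.6%. Against 16 w, 0 of 9 were higher and 2 lower, Ctgf by 5.73-fold (5.67 to 5.80) and Cyr61 by 4.29-fold (4.20 to 4.39), beside 5.78% higher and 13.9% lower of 11677 genes. Equal weight for the clusters put Wisp1 past 2-fold higher against 16 w, at 2.87 in place of 1.84. The 2 comparisons share the one injured library, so these are not separate observations. Clustered more finely, 719 of the 877 cells of a stromal cluster led by Gm10800 and Gm26870 came from the injured library. The part of that cluster was not tested. Age, depth and injury cannot be told apart here, nor can the genotype and tamoxifen of the injury model if they applied to this library.

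Ctgf and Cyr61 were below their 16 w levels in each stromal cluster. For Ctgf the injured library was 5.32-fold lower in cluster 1, 5.13-fold in cluster 2 and 5.62-fold in cluster 3. For Cyr61 the values were 3.95-fold, 4.68-fold and 4.80-fold. Wisp1 differed by cluster, 5.58-fold higher in cluster 3 (4.10 to 7.68), 3.38-fold in cluster 2 (2.81 to 4.08) and 1.34-fold in cluster 1 (1.21 to 1.48). Wisp2 was 3.25-fold lower in cluster 3 and 1.86-fold higher in cluster 1. In the same comparison the stress list was lower after injury than at 16 w, with 6 of 14 genes at least 2-fold lower and 0 higher (all genes 13.9% and 5.78%), and its part was not tested. Macrophage markers in the stromal clusters (7 of 7) were 59.1 CPM after injury against 11.5 at 16 w, and their part was not tested either.

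The other YAP/TAZ target genes, 19 in the list, were mixed. Between 3 d and 3 w, 2 of 18 were at least 2-fold higher and 4 lower, beside 16.4% and 18.9% of all genes, with a median log2 ratio of 0.43 against -0.04 for all genes. Nt5e, the ecto-nucleotidase CD73, went from 16.8 to 276 CPM and Crim1, a BMP-binding membrane protein, was 2.74-fold higher, while the kinase gene Nuak2 was 4.69-fold and the LIM protein gene Ajuba 4.61-fold lower. Between 3 w and 16 w, 4 of 19 were at least 2-fold higher and 0 lower (all genes 5.10% and 5.79%, median 0.62 against -0.10), led by Nuak2 (4.56-fold) and Igfbp3 (3.501-fold). After injury against 16 w, 0 of 18 were at least 2-fold higher and 5 lower (all genes 5.78% and 13.9%, median -0.64 against -0.28). The most abundant, the stress-induced Gadd45b, was 1289 CPM at 16 w and 165 after injury. Against the stroma, of 18 tested, EC-like sums had 6 higher and 7 lower (all genes 18.8% and 22.7%), MC-like 9 higher and 4 lower (16.4% and 17.2%), MPh-like 2 higher and 11 lower (24.6% and 29.0%) and synovial lining-like 3 higher and 7 lower (12.4% and 15.3%).

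Among 19 Hippo pathway genes, which code for the kinases that hold YAP and TAZ in the cytoplasm and for their TEAD partners, 2 of 17 were at least 2-fold higher and 3 lower between 3 d and 3 w (all genes 16.4% and 18.9%, median 0.09). Wwtr1, the gene of TAZ and the most abundant of the list, was 73.3 CPM at 3 d, 174 at 3 w, 210.2 at 16 w, 158 at 78 w and 99.4 after injury. The scaffold gene Sav1 was 4.04-fold higher at 3 w, Vgll3 8.20-fold lower, and Tead2 7.91-fold lower, from 27.6 to 3.48 CPM. Between 3 w and 16 w only Amotl1, an angiomotin, passed 2-fold upward (2.09-fold), and 0 downward (all genes 5.10% and 5.79%). After injury against 16 w, 0 of 16 were at least 2-fold higher and 2 lower, Wwtr1 (2.11-fold) and Tead3 (2.09-fold), beside 5.78% and 13.9% of all genes. MPh-like sums had 5 higher and 10 lower of 18 (all genes 24.6% and 29.0%), with Tead3 at log2 -2.19 and Wwtr1 at -2.16 (edgeR adjusted p = 3.60e-05 and 3.88e-09). EC-like sums had 7 higher and 4 lower (all genes 18.8% and 22.7%), MC-like 6 higher and 1 lower (16.4% and 17.2%) and synovial lining-like 1 higher and 3 lower (12.4% and 15.3%).

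Of 15 other channels that respond to stretch or pressure, 9 had enough UMIs, and between 3 d and 3 w 2 of 9 were at least 2-fold higher and 2 lower (all genes 16.4% and 18.9%, median 0.28): Pkd1 2.24-fold and Trpc1 2.11-fold higher, Kcnk2 3.74-fold and Panx1 2.71-fold lower. Pkd2, the polycystin channel and the most abundant of them, was 92.6 CPM at 3 d and 209 at 16 w. MC-like sums had 3 higher and 3 lower (all genes 16.4% and 17.2%), and there Trpc6, a diacylglycerol-gated channel of smooth muscle, was higher by log2 7.89 and Trpv2 by 4.93 (edgeR adjusted p = 3.18e-09 and 1.15e-13), while Trpv4 was lower there. EC-like sums had 2 higher and 3 lower (all genes 18.8% and 22.7%), MPh-like 1 higher and 3 lower (24.6% and 29.0%) and synovial lining-like 2 higher and 1 lower (12.4% and 15.3%).

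Integrins are receptors of CCN proteins, and of 17 integrin and focal adhesion genes 2 of 17 were at least 2-fold higher and 2 lower between 3 d and 3 w (all genes 16.4% and 18.9%, median 0.09). The collagen receptors Itga1 and Itga10 were 6.44-fold and 3.69-fold higher, while Itgb3, a chain of the vitronectin receptor, was 15.99-fold and Itga8 2.97-fold lower. Itgb1, the most abundant, stayed between 238 CPM at 3 w and 391 at 3 d. Itgav was 2.52-fold higher after injury than at 3 w. MC-like sums had 10 higher and 4 lower (all genes 16.4% and 17.2%), EC-like 8 higher and 4 lower (18.8% and 22.7%), MPh-like 4 higher and 6 lower (24.6% and 29.0%) and synovial lining-like 6 higher and 2 lower (12.4% and 15.3%).

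The SRF/MRTF list holds 11 actin-linked genes, some of which are also contractile genes of mural cells. Between 3 d and 3 w, 0 of 10 were at least 2-fold higher and 4 lower (all genes 16.4% and 18.9%, median -0.76), Cnn2 by 3.82-fold and Tpm1 by 3.53-fold. Actb, the most abundant, was 2512 CPM at 3 d, 1164 at 3 w and 4486 after injury. MC-like sums had 9 higher and 0 lower of 11, with Cnn1 at log2 8.87 (edgeR adjusted p = 1.53e-10), beside 16.4% and 17.2% of all genes. EC-like sums had 4 higher and 2 lower (all genes 18.8% and 22.7%), MPh-like 4 higher and 2 lower (24.6% and 29.0%) and synovial lining-like 1 higher and 0 lower (12.4% and 15.3%). On the stress list, 6 of 14 were at least 2-fold higher and 1 lower between 3 d and 3 w (all genes 16.4% and 18.9%, median 0.88, Atf3 7.69-fold and Klf2 6.26-fold) and 6 of 14 were at least 2-fold higher and 0 lower between 3 w and 16 w (all genes 5.10% and 5.79%, median 0.81, Hspa1b 4.96-fold and Dusp1 3.66-fold). Fos, its most abundant gene, was 1317 CPM at 3 d and 3777 at 16 w. EC-like sums had 2 higher and 1 lower of 14 (all genes 18.8% and 22.7%), MC-like 3 higher and 1 lower (16.4% and 17.2%), MPh-like 5 higher and 2 lower (24.6% and 29.0%) and synovial lining-like 0 higher and 3 lower (12.4% and 15.3%).

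The genes whose pattern was most like each of the 9 were taken over 37 combinations of cluster and library with at least 50 cells, by Pearson's r of log2(CPM + 5) among 12750 genes. These points share libraries, depth and cell classes, and the values are descriptions. Ctgf was most like Scara3 (0.895), Prg4 (0.893) and Errfi1 (0.891), Prg4 being the gene of lubricin, the lubricant of joint surfaces. For Cyr61 they were Cytl1 (0.867), Cbx7 (0.830) and Lag3 (0.823), and for Ankrd1, with lower values, Prrt1 (0.733), Cobl (0.715) and Ccdc149 (0.685). Nov was closest to Lama4 (0.818), Ebf1 (0.810) and Adamtsl1 (0.808), of which Lama4 codes for a laminin chain of vessel basement membranes. Wisp1 was closest to Col16a1 (0.873), Zfp512b (0.871) and Dclk1 (0.861), and Wisp2 to Fbln7 (0.903), Igfbp6 (0.889) and Serping1 (0.874). The channels paired with Bloc1s4 (0.814), Fam63a (0.794) and App (0.791) for Piezo1, Col18a1 (0.850), Gja4 (0.825) and Chn1 (0.821) for Piezo2, where Gja4 is a gap junction gene of vessels, and St3gal6 (0.769) and Arhgef1 (0.755) for Trpv4. Within the 9, the highest r was that of Cyr61 with Ctgf (0.784) and the lowest that of Ctgf with Wisp1 (-0.424).

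Of the 9 genes, with their current names and places on GRCm38, Cyr61 (Ccn1) lies at chr3:145646976-145649981, Ctgf (Ccn2) at chr10:24595442-24598683, Nov (Ccn3) at chr15:54745702-54754039 and Wisp1 (Ccn4) at chr15:66891320-66923201. Nov and Wisp1 are thus on the same chromosome. Wisp2 (Ccn5) lies at chr2:163820861-163833146, Ankrd1 at chr19:36111961-36120099 and Trpv4 at chr5:114622152-114658421. An antisense gene, Gm15270, overlaps Ctgf and was not among the genes counted.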

How the data were processed

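The authors deposited, for each of the 5 libraries, a filtered matrix of UMI counts per gene and cell barcode, made with 10x Chromium 3′ chemistry. The submitters' processing notes name Cell Ranger 3.1 and mm10, while the matrix headers name Cell Ranger 4.0.0. The strand setting is not given in the sources used here. The 9 genes and all lists were chosen with earlier results of these data known. Of 51948 cells, 51688 had 200 or more UMIs with a mitochondrial share up to 30% and were retained, merged and clustered with Seurat 5.3.0 (anchor integration, 1963 variable genes left after 37 listed genes were taken out, 30 dimensions, resolution 0.2), and clusters were named from fixed markers. A cluster of 2035 cells with few UMIs per cell and 1 of 177 cells stayed unnamed. Scrublet's own threshold marked 0 to 2 cells per library, so no doublets were removed in the main analysis.

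UMIs were summed per library and class, giving CPM with exact Poisson intervals and, between ages, ratios. A gene was called at a ratio of at least 2 or at most 0.5 with at least 100 UMIs in the library with more. Interval and floor (3 counts) cover counting error only. Class contrasts used edgeR 4.0.16 (quasi-likelihood, TMM, library as a block) on 29 sums of at least 20 cells, 4 of them erythroid-like, Benjamini-Hochberg adjusted at 0.05, and the code was tested on simulated data. Named genes were the 9, the 3 most alike to each (1 of them, for Trpv4, is not reported here), and from each other list at most the 2 with the largest ratio in each direction plus the most abundant. Alternatives were DESeq2 1.42.0, library totals, other filters and clusterings, equal weights for cells or stromal clusters, and leaving out each library. Promoters and positions came from RefSeq and GENCODE M21 tables on the same build as the files (mm10, GRCm38).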

Additional observations from a re-analysis of the deposited data

Results flagged for a closer look

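Nov differed between 3 d and 78 w in opposite directions in different cell classes. Its 78 w to 3 d ratio was 0.0846 in the stromal clusters, 0.0560 in MPh-like cells and 0.125 in synovial lining-like cells, and 2.43 in MC-like cells. Each ratio compares 1 library with 1 other, so the difference between the classes was not tested. Without the cells with the highest doublet scores, which held 80.1% of MPh-like Nov UMIs at 3 d, MPh-like Nov was 20.1 CPM at 3 d and 2.16 at 78 w, MC-like Nov 44.9 and 178, and stromal Nov 235 and 19.98. Synovial lining-like Nov was then 666 CPM at 3 d and 81.6 at 78 w. Clustering without integration named no synovial lining-like cells at 3 d (493 in the main clustering), so that ratio exists only with integration. EC-like Nov was 100.1 CPM at 3 d and 89.4 at 78 w with all cells, and 62.7 and 103 without the high-scoring cells. In the MC-like cells the 78 w level was below that at 16 w, and the mural cells led by Rgs5 and Ccl11 held more Nov than those led by Myh11 at every age.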

How the results depend on the processing

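With 1 library per age, the ratios between ages carry no test and depend on which stromal cells a library held. The largest dependence was on the weight of the 3 stromal clusters: with equal weight Piezo2 at 3 w against 3 d turned from lower to higher (1.13), 2 instead of 1 of the 9 genes were lower at 78 w than at 16 w (Ankrd1, 0.438, joined Piezo2), and 1 was higher after injury than at 16 w (Wisp1). Of 371 ratios with enough UMIs over all alternatives, 5 took the other direction, 8 crossed 2-fold and 15 moved by over 1.5 times, at most by a factor of 3.746. A minimum of 20 UMIs in place of 100 gave more genes past 2-fold. They were 1008 higher and 1140 lower at 16 w against 3 w, and 443 and 405 at 78 w against 16 w. After injury 1109 were higher against 3 w and 1139 against 16 w. This minimum compares more genes, among them genes with fewer UMIs, and the part of each in these counts was not tested.

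The class contrasts depended most on the library block. Without it 3055 (EC-like), 2005 (MC-like), 4214 (MPh-like) and 1044 (synovial lining-like) genes were called, and of the 9 genes 1, 1, 0 and 0 were higher and 1, 1, 2 and 0 lower. With 1 library left out in turn, the genes called in synovial lining-like sums ranged from 1974 to 3516, and the number of the 9 called higher from 1 to 4 (EC-like), 1 to 2 (MC-like) and 0 to 1 (synovial lining-like), and called lower in the last from 2 to 4. Clustering without integration, which gave that class no 3 d cells and so 4 libraries, left 0 higher and 2 lower there, and no filter on low counts left 1 higher. Directions turned for 3 uncalled contrasts, Piezo1 in MPh-like sums without 3 w (log2 fold -0.10 to 0.20 with 1 library left out in turn), Wisp2 in synovial lining-like sums without 78 w (-0.18 to 0.70), and Ctgf there without 3 d (-0.063 to 0.51) and without the block (-0.33). Over all alternatives, 429 of 504 contrasts of the 9 genes kept direction and call, 61 lost the call and 10 gained it. The causes were not tested. Scrublet's threshold marked too few cells to use, so the planned removal of doublets was replaced, after seeing the data, by removal of the highest scores (6.779% to 11.97% of cells by library). The libraries are the blocks of the main fit, so each class is compared with the stroma of the same library. No other pairing of samples exists, and ages and injury could not be compared in pairs because each condition has 1 library. Sparse genes limit what can be read, above all Ankrd1, held by few cells, and Piezo2, both outside vessel cells and, after 3 d, within them.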
